A study of Mus musculus with 6 samples.

Results

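Lysosomal genes were followed in bulk RNA sequencing of mouse inner ear, in 3 libraries of wild-type mice (WT) and 3 libraries of mice mutant for Pou3f4 (Pou3f4y/-, here KO). The set has 37 genes of the 55401 in the deposited count table, taken by symbol: 6 lysosomal membrane proteins, 3 luminal cofactors, 8 proteases, 11 glycosidases, 5 sulfatases and 4 lipid enzymes. Osteoclast genes were left out of it. All 37 genes were found once in the table and passed the filter on low counts, as did 19687 genes in all. The series asks what lies behind pigmentation of the inner ear in the mutant. The labels give the tissue as inner ear with every cell type included, and give a cell line field that reads interstitial cells. They name no treatment agent, age, dissection or origin of the mutant allele. They do not say whether libraries of a genotype came from separate animals, so p-values measure only the spread between these libraries, which may be partly technical.

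The lysosome is the acidic compartment in which the cell digests material taken up from outside and worn parts of its own. Hydrolases cut proteins, sugar chains and lipids there. Most are made in the endoplasmic reticulum, tagged with mannose 6-phosphate and carried to the lysosome by receptors, while membrane proteins form the coat of the organelle and move its products out. Melanosomes, the pigment granules, are organelles related to lysosomes, and bone-resorbing osteoclasts secrete lysosomal enzymes onto bone. Inherited loss of several of these enzymes causes storage disease, and in the mucopolysaccharidoses, where glycosaminoglycans accumulate, hearing loss and skeletal malformation are common.

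Total counts were 18409409 to 23323953 per library. Pou3f4, a POU-domain factor of the mesenchyme around the ear, had 94.5 ± 31.3 CPM in WT (mean ± SD, here and below, n = 3) against 1.6 ± 0.370 CPM in KO (n = 3), so the transcript followed the genotype label in every library. CPM are counts scaled to a library total of 1000000 after TMM scaling. Inner ear transcripts were present, among them cochlin (Coch) at 613 CPM and otoraplin (Otor) at 349 CPM in WT. Xist held 9143 to 15783 counts in WT replicates 1 and 2 and KO replicates 2 and 3, and 6 and 1 counts in WT replicate 3 and KO replicate 1, so both genotypes mix libraries with and without Xist. Xist is normally transcribed in females, so its level in KO replicates 2 and 3 goes against the y/- label, which is written as for males, while Pou3f4 held 28 and 30 counts in them and 45 in KO replicate 1. Muscle genes took between 0.0243% and 1.16% of the counts of a WT library, against at most 0.0917% in KO. In such bulk samples, fewer cells of a type and less RNA per cell cannot be told apart.

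The summed level of the lysosomal genes was higher in KO. Of the role groups, the sulfatases and glycosidases had the highest ratios of KO to WT. Most of the sulfatase sum was the single gene Arsb, whose count is uncertain. The sum over the 37 genes was 7620, 8280 and 7441 CPM in WT replicates 1 to 3 and 8979, 9017 and 9231 CPM in KO replicates 1 to 3. Every KO library lay above every WT library, and the ratio of the means was 1.17. The median log2 fold change of the members, KO over WT, was 0.25, beside −0.01 over all genes tested, and 30 of the 37 had a fold change above 0, beside 49% of all genes. In 22 members the 3 KO libraries lay above the 3 WT libraries without overlap, as in 15% of all genes, and in 3 members below, as in 12.7%. The test of single genes called far fewer. With the quasi-likelihood test of edgeR and an adjusted p under 0.05, 1 member was higher in KO, Gusb, against a background of 0.213% of all genes called higher, and 0 were lower (background 0.183%). Over both directions the background was 0.396%, or 78 genes, 42 higher and 36 lower. At an unadjusted p under 0.05 there were 16 members higher (background 8.71%) and 0 lower (background 10.9%, and 19.6% over both directions). DESeq2 called 11 members higher (background 2.98%) and 0 lower (background 4.77%, and 7.76% over both directions).

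**Figure D1:**
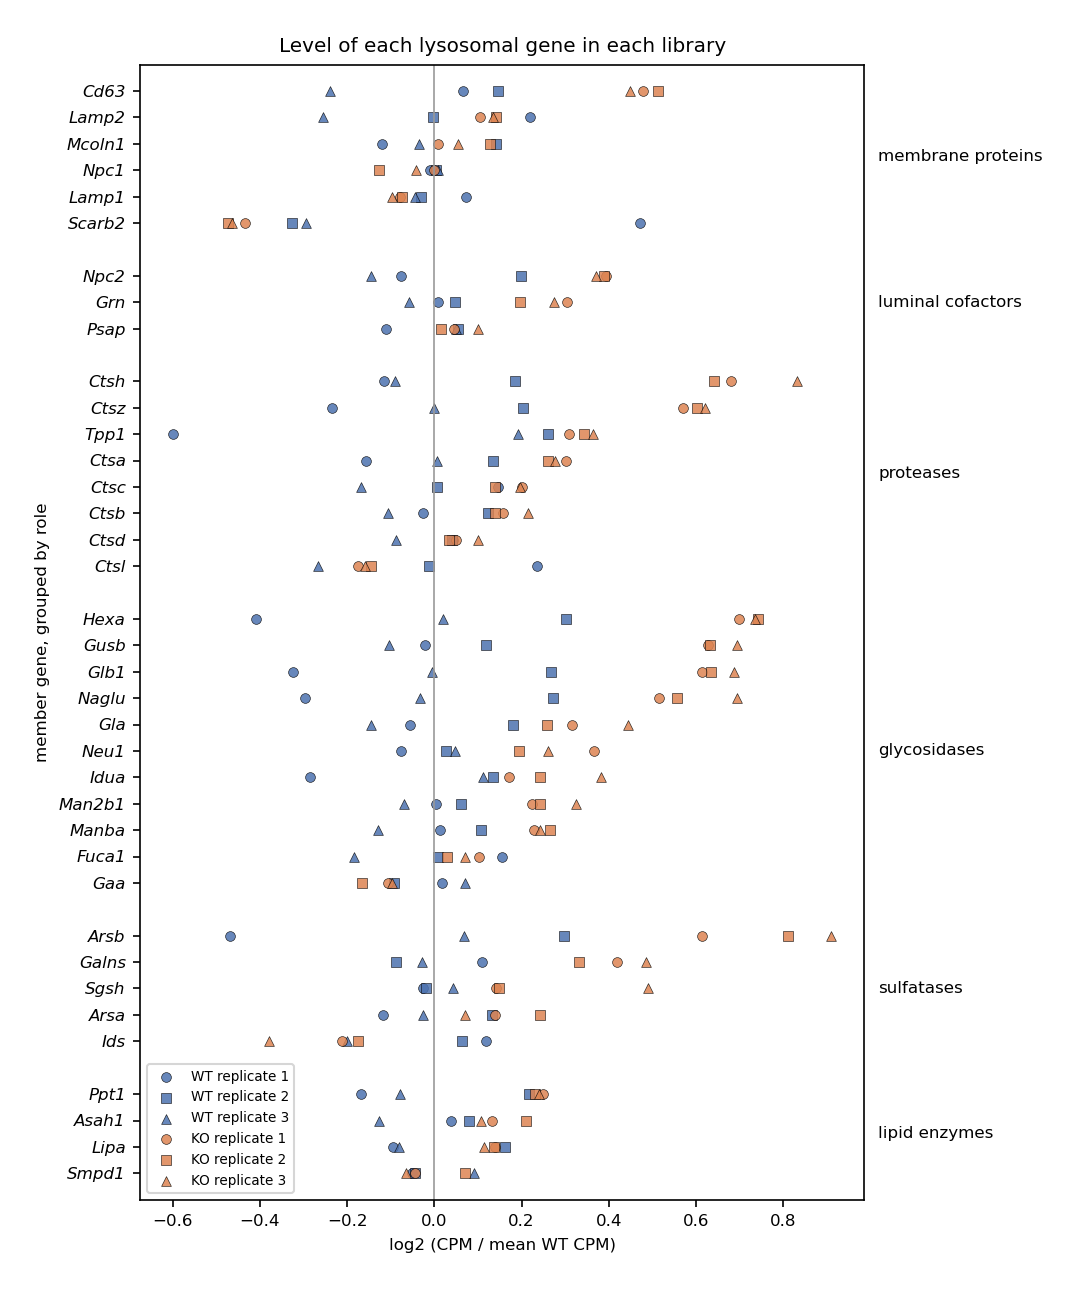
Level of each of the 37 lysosomal genes in each library, as log2 of CPM over the mean WT CPM (horizontal axis), with genes grouped by role (vertical axis). Blue marks are the 3 WT libraries and orange marks the 3 KO libraries; KO marks lie right of all WT marks in 22 genes and left of them in Scarb2, Lamp1 and Gaa.

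The members spanned a wide range of levels. Per kilobase of exon, the highest in WT was Psap (prosaposin, precursor of the saposins that present lipids to their enzymes) at 424 CPM per kilobase, followed by the aspartic protease Ctsd at 275 and the coat protein Lamp1 at 215 CPM per kilobase. The lowest was Gla (alpha-galactosidase A) at 3.86 CPM per kilobase, and the ratio of highest to lowest was 110. Of the 36 neighbouring pairs in this order, 9 had WT ranges that did not overlap. The ranges of Psap, Ctsd and Lamp1 each lay apart from that of the next gene. So did those of Cd63 from Grn, Grn from Ctsa, Smpd1 from Ids, Man2b1 from Neu1, Neu1 from Galns and Manba from Idua. These ranges hold only the spread between libraries. The order also rests on the exon length used, the union of all annotated exons of a gene. Cathepsin Z (Ctsz) at 130, Hexa at 128 and Ctsb at 128 CPM per kilobase did not differ beyond their spread. In KO the mean levels of Hexa (212) and Ctsz (198) stood close to that of Lamp1 (203 CPM per kilobase). On the CPM scale, Psap, Ctsb and Ctsd together made up 33.2% of the summed WT level. Exons of Ctsd overlap a gene model on the same strand over 34.4% of their length, so its level is uncertain.

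**Figure D2:**
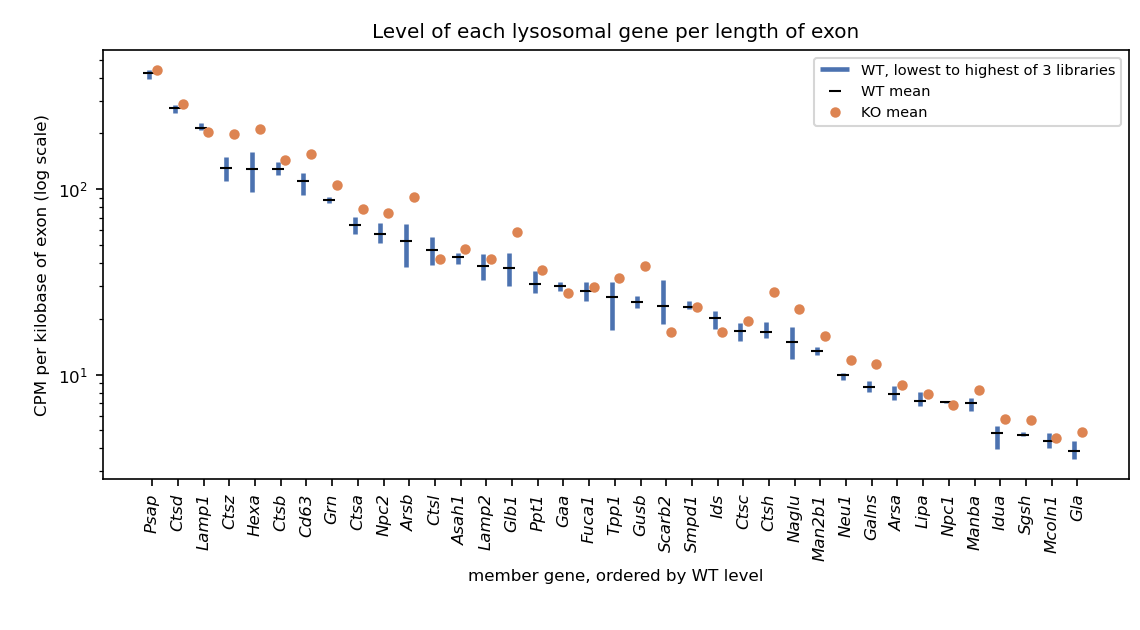
Level of each lysosomal gene per length of exon (vertical axis, CPM per kilobase, log scale), with genes ordered by their WT mean (horizontal axis). Blue bars run from the lowest to the highest of the 3 WT libraries, black ticks are WT means and orange points KO means; levels fall from 424 for Psap to 3.86 CPM per kilobase for Gla.

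Many lysosomal genes are known targets of TFEB, a transcription factor that binds a CACGTG-centred element, and the promoters of the members were searched for it. RefSeq promoter windows (GRCm38.p6, 250 bases before to 50 after the transcript start) were matched for 32 of the 37 members; Npc1, Ctsb, Ctsh, Galns and Asah1 were not matched. The letters CACGTG occurred in 11 of 32 members (34.4%) and in 8.09% of 27025 genes with a window. Those 27025 genes were not limited to the genes tested here. Since many lysosomal genes are known targets, a higher share in the members is not an independent result. The longer TCACGTGA, which contains CACGTG, occurred in 4 members (12.5%) and in 1.12% of genes, and the same letters with a G before and a C after occurred in 0 members and in 0.37% of genes. Each motif reads the same on both strands. The 12 sites below are shown because they are the boxes of the 4 members with TCACGTGA, the 4 boxes of Lamp1, and the single boxes of Glb1 and Naglu, a pair of glycosidases whose KO libraries lay above WT. Each line gives 30 bases on the strand of the gene with the motif in capitals, and the position of the first base of CACGTG, where 0 is the first transcribed base.
Mcoln1, chr8:3500462-3500491, plus strand, position −45: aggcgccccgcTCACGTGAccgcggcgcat
Ctsd, chr7:142387908-142387937, minus strand, position −98: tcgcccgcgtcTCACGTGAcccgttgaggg
Ctsa, chr2:164833749-164833778, plus strand, position −12: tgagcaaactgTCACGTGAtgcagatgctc
Ctsa, chr2:164833766-164833795, plus strand, position 5: gatgcagatgcTCACGTGAccagagctaca
Gla, chrX:134601182-134601211, minus strand, position −194: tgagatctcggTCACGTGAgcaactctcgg
Gla, chrX:134601215-134601244, minus strand, position −227: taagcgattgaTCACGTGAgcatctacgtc
Lamp1, chr8:13159088-13159117, plus strand, position −61: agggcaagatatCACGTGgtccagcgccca
Lamp1, chr8:13159104-13159133, plus strand, position −45: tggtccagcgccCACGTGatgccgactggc
Lamp1, chr8:13159121-13159150, plus strand, position −28: gatgccgactggCACGTGaccacatcacgt
Lamp1, chr8:13159134-13159163, plus strand, position −15: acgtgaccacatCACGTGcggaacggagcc
Glb1, chr9:114401018-114401047, plus strand, position −48: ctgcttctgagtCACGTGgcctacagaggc
Naglu, chr11:101070009-101070038, plus strand, position −73: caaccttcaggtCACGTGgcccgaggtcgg
Mcoln1 and Ctsd each had another CACGTG without the flanking letters, and Arsa, Ctsl, Gaa and Sgsh had 1 each. Glb1 and Naglu were thus picked by their values. Of the single-box genes not printed, KO libraries lay above WT in Sgsh and below in Gaa, and overlapped WT in Arsa and Ctsl. For the members with CACGTG, the median log2 fold change was 0.15, with 4 of 11 higher at an unadjusted p under 0.05. For members whose window lacked it, the values were 0.26 and 10 of 21. The difference between members with and without the box was not tested. Over all genes tested, 8.71% were higher and 10.9% lower at an unadjusted p under 0.05, and the median was −0.01. In the other gene lists described further on, CACGTG occurred in 58.3% of 12 genes of hydrolase targeting, 15.8% of 19 other hydrolases, 10.5% of 19 other membrane proteins, 26.3% of 19 regulators and 12.5% of 16 autophagy genes with a window. TCACGTGA occurred in 4, 1, 2, 0 and 0 of these. A match of letters is a description and does not show binding.

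Glycosidases and sulfatases held the largest summed ratios of the role groups (1.36 and 1.46), and within them the enzymes that dismantle glycosaminoglycans, the sugar chains of proteoglycans in cartilage, bone and connective tissue. Of the 9 members with that role, 8 had KO libraries wholly above WT (15% of all genes) and 6 were higher at an unadjusted p under 0.05 (8.71% of all genes). Their summed level was 829, 1184 and 1004 CPM in WT replicates 1 to 3 and 1470, 1561 and 1618 CPM in KO replicates 1 to 3, a ratio of means of 1.54. Their median log2 fold change was 0.59, beside 0.16 for the other 28 members, of which 14 had KO libraries wholly above WT and 10 were higher at an unadjusted p under 0.05, to be read against the same shares. Arsb alone held 318 CPM of the mean sulfatase sum of 494 CPM in WT, and 548 of 723 CPM in KO. The sulfatase ratio of 1.46 thus depends on that gene, whose count is uncertain, and the sum of the 9 members includes it too.

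Gusb, beta-glucuronidase, removes glucuronic acid from heparan, dermatan and chondroitin sulfate (ENSMUSG00000025534, mm10 chr5:129989011-130003049, minus strand). Its level was 110, 121 and 104 CPM in WT replicates 1 to 3 and 172, 173 and 180 CPM in KO replicates 1 to 3. The KO libraries lay close together and well above all WT libraries. Gusb rose 1.57-fold, from 111 ± 8.77 to 175 ± 4.54 CPM (log2 fold change 0.65, SE 0.085, adjusted p = 0.0490, edgeR). Over 15 alternatives the adjusted p ran from 1.34e-07 (DESeq2) to 0.357. Its adjusted p was 0.136 without WT replicate 3 and 0.357, 0.271 and 0.330 without KO replicate 1, 2 or 3, with log2 fold changes of 0.60 to 0.67, and 0.145 with Xist presence added to the model.

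The next glycosidases of this kind were Hexa, Glb1 and Naglu. Hexa (chr9:59539540-59565109) encodes the alpha subunit of beta-hexosaminidase, which trims hexosamine ends from gangliosides and sugar chains. Its WT libraries, here and below in the order of replicates 1 to 3, had 193, 316 and 260 CPM, against 415, 429 and 427 CPM in KO, 1.65-fold apart (log2 fold change 0.73, SE 0.175, adjusted p = 0.125, edgeR). Tmem202, on the other strand, shares 12.8% of the exon length of Hexa, and Tmppe, on the same strand, 5.5% of that of Glb1. Glb1 (chr9:114401076-114474898), the lysosomal beta-galactosidase that acts on keratan sulfate and ganglioside GM1, had 90.2, 136 and 113 CPM in WT against 173, 175 and 182 CPM in KO (log2 fold change 0.65, SE 0.15, adjusted p = 0.115, edgeR). Naglu (chr11:101070012-101077672), a glucosaminidase of heparan sulfate breakdown, had 32.3, 48.0 and 38.8 CPM in WT against 56.7, 58.3 and 64.3 CPM in KO (log2 fold change 0.59, SE 0.15, adjusted p = 0.132, edgeR). In these 3 genes WT replicate 1 was lowest and WT replicate 2 highest, and the KO libraries lay above both. DESeq2 called all 3 higher, as did edgeR without WT replicate 1 or without WT replicate 2. Over the alternatives the adjusted p ran from 0.00475 to 0.445 for Hexa, 0.00553 to 0.444 for Glb1 and 0.0193 to 0.456 for Naglu. Idua, the iduronidase of heparan and dermatan sulfate, had 20.2 ± 3.15 CPM in WT against 24.3 ± 1.82 CPM in KO (adjusted p = 0.352, edgeR).

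Among the sulfatases, Arsb (chr13:93771630-93943016; arylsulfatase B, which removes sulfate from dermatan and chondroitin sulfate) had the highest level on the CPM scale and the largest fold change of all members. It had 230, 391 and 334 CPM in WT against 487, 558 and 598 CPM in KO, 1.72-fold apart (log2 fold change 0.78, SE 0.20, adjusted p = 0.133, edgeR; 0.00596 to 0.456 over the alternatives). The groups did not overlap, but the WT libraries differed among themselves by more than those of most members (CV 25.7%). Its exons overlap other gene models over 39.9% of their length, mostly Gm26527 on the opposite strand, so its count is uncertain. Galns (chr8:122578242-122611463), which removes sulfate from keratan and chondroitin sulfate, had 24.6, 21.4 and 22.3 CPM in WT against 30.5, 28.7 and 31.9 CPM in KO (log2 fold change 0.41, SE 0.10, adjusted p = 0.126, edgeR; 0.0252 to 0.455 over the alternatives). Ids, the iduronate sulfatase of heparan and dermatan sulfate, was the exception among the glycosaminoglycan enzymes. It had 112, 108 and 90.1 CPM in WT against 89.3, 91.6 and 79.5 CPM in KO, and the groups overlapped (log2 fold change −0.25, SE 0.11, adjusted p = 0.263, edgeR). Sgsh, the sulfamidase of heparan sulfate, had 20.9 ± 0.557 CPM in WT against 25.2 ± 3.60 CPM in KO, with 21.6% of its exon length overlapped by Card14. Arsa, the sulfatase of the myelin lipid sulfatide, had 28.99 ± 2.58 CPM against 32.2 ± 1.94 CPM, with overlapping groups.

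**Figure D3:**
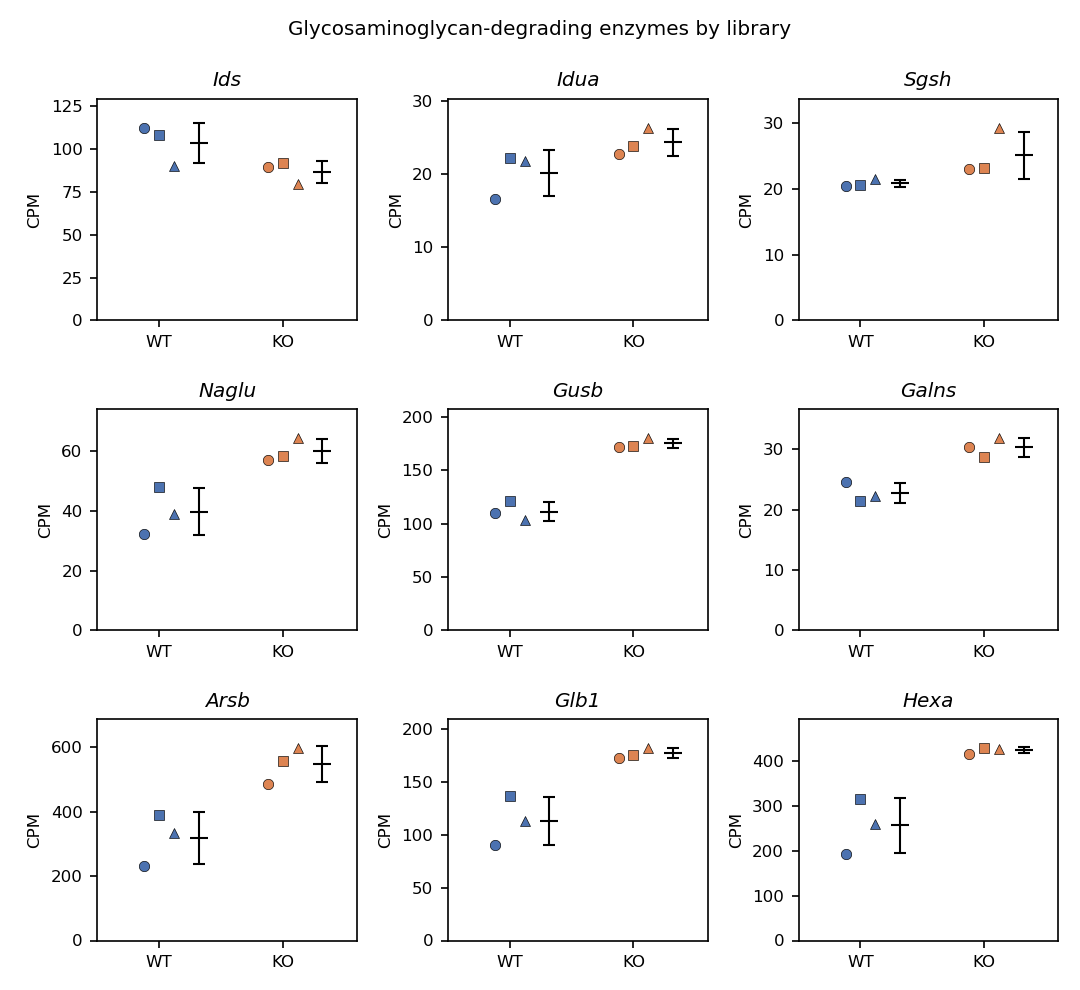
CPM (vertical axis, from 0) of the 9 glycosaminoglycan-degrading enzymes in WT and KO libraries (horizontal axis; circle, square and triangle are replicates 1, 2 and 3), with the mean and SD of each group in black. KO libraries lie above all WT libraries in 8 of the 9, and Ids is the gene in which they do not.

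The remaining glycosidases act on glycoproteins, glycolipids and glycogen, and their log2 fold changes ran from −0.12 (Gaa) to 0.34 (Gla). Man2b1 and Manba, the lysosomal alpha- and beta-mannosidases, had 108 ± 4.85 and 48.7 ± 3.97 CPM in WT against 129 ± 4.84 and 57.7 ± 0.762 CPM in KO. The sialidase Neu1 had 36.97 ± 1.65 CPM in WT against 44.7 ± 2.70 CPM in KO, and Gla, which cuts globotriaosylceramide, 12.6 ± 1.504 against 15.96 ± 1.06 CPM. In these 4 genes the KO libraries lay wholly above WT, with unadjusted p under 0.05 and adjusted p of 0.153 (Man2b1) to 0.234 (Gla, edgeR). The fucosidase Fuca1 overlapped between the groups, with 92.7 ± 10.9 CPM in WT against 97.1 ± 2.43 CPM in KO. Gaa, the acid alpha-glucosidase that breaks down glycogen, had 145, 134 and 150 CPM in WT against 133, 128 and 134 CPM in KO (log2 fold change −0.12, SE 0.08, adjusted p = 0.421, edgeR). Its KO libraries lay narrowly below WT. Sgsh, 57971 bases away on chromosome 11, had a log2 fold change of the opposite sign, 0.27.

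Among the proteases, Ctsh and Ctsz differed most. Ctsh (chr9:90054152-90076089; cathepsin H, an aminopeptidase) had 70.6, 86.9 and 71.8 CPM in WT against 122, 119 and 136 CPM in KO, 1.65-fold apart (log2 fold change 0.72, SE 0.11, adjusted p = 0.0573, edgeR; 1.29e-05 to 0.357 over the alternatives). Ctsz (chr2:174427493-174439039; cathepsin Z, a carboxypeptidase) had 160, 216 and 188 CPM in WT against 279, 286 and 289 CPM in KO, 1.51-fold apart (log2 fold change 0.60, SE 0.12, adjusted p = 0.0912, edgeR; 0.00129 to 0.407 over the alternatives). In both genes every KO library lay above every WT library. DESeq2 called both, and edgeR called both without WT replicate 1 (adjusted p = 0.0199 and 0.0211) and without WT replicate 2 (0.0265 and 0.0317). Ctsa, the protective protein that stabilises beta-galactosidase and sialidase, had 303 ± 30.3 CPM in WT against 368 ± 5.17 CPM in KO (log2 fold change 0.28, SE 0.10, adjusted p = 0.193, edgeR). Exons of Ctsa overlap other genes over 17.4%.

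The most abundant proteases had small fitted changes. Ctsb, a cysteine protease, had 762, 844 and 721 CPM in WT against 865, 854 and 900 CPM in KO, narrowly apart. Ctsd had 666, 665 and 608 CPM in WT against 670, 661 and 693 CPM in KO, which overlapped. Their log2 fold changes were 0.17 (SE 0.09, adjusted p = 0.348, edgeR) and 0.06 (SE 0.08, adjusted p = 0.707, edgeR). Ctsl, the cysteine protease cathepsin L, had 359, 302 and 253 CPM in WT, a spread that contained all KO libraries (270, 275 and 273 CPM). Ctsc, which activates serine proteases of immune cell granules, had 99.5 ± 10.8 CPM in WT against 113 ± 2.60 CPM in KO, with overlapping groups. In Tpp1, a tripeptidyl peptidase, a single library set the size of the difference. It had 89.7 CPM in WT replicate 1, 163 and 155 CPM in WT replicates 2 and 3, and 168, 172 and 175 CPM in KO, and its log2 fold change of 0.34 became 0.10 without WT replicate 1. Exons of Ctsb and Ctsl overlap genes on the opposite strand over 12.8% and 26.8%.

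Of the luminal cofactors, Npc2 and Grn were called higher by DESeq2 but not by edgeR. Npc2, which hands cholesterol to the membrane protein NPC1, had 294, 355 and 280 CPM in WT against 407, 406 and 401 CPM in KO (log2 fold change 0.38, SE 0.11, adjusted p = 0.154, edgeR; 0.0381 to 0.462 over the alternatives). Grn, progranulin, a secreted glycoprotein that is cut into granulins in lysosomes, had 306, 314 and 292 CPM in WT against 376, 348 and 368 CPM in KO (log2 fold change 0.26, SE 0.08, adjusted p = 0.168, edgeR; 0.0431 to 0.480 over the alternatives). In both genes the groups did not overlap. Psap, the most abundant member, had 1078, 1209 and 1204 CPM in WT against 1200, 1175 and 1247 CPM in KO, with overlapping groups (log2 fold change 0.05, SE 0.09, adjusted p = 0.766, edgeR).

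The 6 membrane proteins had a median log2 fold change of 0.0048, with 3 above 0 and 3 below. Cd63 (chr10:128900989-128912822), a tetraspanin of late endosomes that also takes part in melanosome formation, had the highest fold change among them and was called by DESeq2 but not by edgeR. Its libraries had 426, 450 and 344 CPM in WT against 566, 580 and 555 CPM in KO, 1.40-fold apart without overlap (log2 fold change 0.48, SE 0.12, adjusted p = 0.127, edgeR; 0.00830 to 0.445 over the alternatives). The coat proteins Lamp1 and Lamp2 had 575 ± 26.2 and 368 ± 60.4 CPM in WT against 543 ± 4.30 and 402 ± 5.51 CPM in KO, with log2 fold changes of −0.08 (SE 0.079) and 0.13 (SE 0.129). The KO libraries of Lamp1 lay below WT and those of Lamp2 within its range. Scarb2 (LIMP-2, the carrier of glucocerebrosidase) had 204 CPM in WT replicate 1, 117 and 120 CPM in WT replicates 2 and 3, and 109, 106 and 107 CPM in KO, the lowest levels of all. The fitted change was −0.46 on the log2 scale (SE 0.22, adjusted p = 0.300, edgeR) and −0.16 without WT replicate 1. The calcium channel Mcoln1 had 33.0 ± 3.10 CPM in WT against 34.5 ± 1.45 CPM in KO, and the cholesterol exporter Npc1 80.2 ± 0.536 against 77.2 ± 3.39 CPM.

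The 4 lipid enzymes had a median log2 fold change of 0.14, and 0 reached an unadjusted p under 0.05 with edgeR or were called by DESeq2. Asah1, acid ceramidase, had 146 ± 10.8 CPM in WT against 162 ± 6.13 CPM in KO, and the palmitoyl-protein thioesterase Ppt1 114 ± 16.4 against 134 ± 0.866 CPM. The KO libraries of both lay above WT, those of Ppt1 narrowly above WT replicate 2. Smpd1, acid sphingomyelinase, had 77.6 ± 4.43 against 77.0 ± 3.96 CPM (log2 fold change −0.01, SE 0.078), and Lipa, the acid lipase of cholesteryl esters, 48.8 ± 5.01 against 53.4 ± 0.541 CPM. Both overlapped between the groups.

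**Figure D4:**
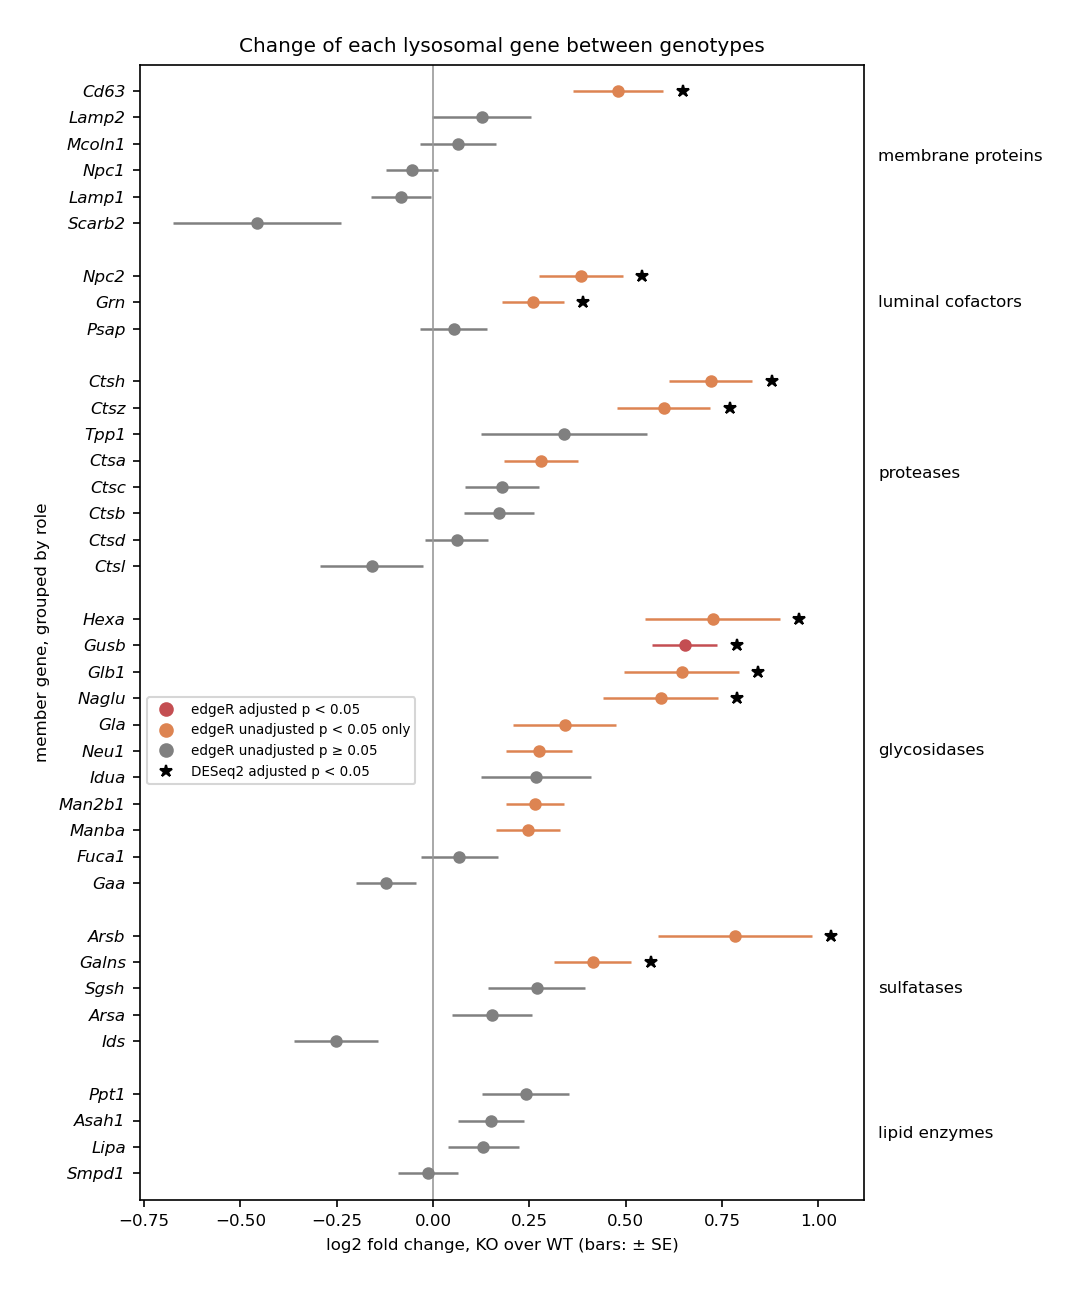
Log2 fold change, KO over WT, of each lysosomal gene (horizontal axis; bars are ± SE), grouped by role (vertical axis). Red marks an edgeR adjusted p under 0.05 (Gusb), orange an unadjusted p under 0.05 only, grey neither, and stars the 11 genes called by DESeq2; these lie among the glycosidases, sulfatases, proteases and luminal cofactors, with Cd63 the membrane protein among them.

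The spread within groups was uneven. The CV was larger in WT than in KO in 33 of the 37 members, with medians of 10.3% in WT and 2.67% in KO, beside 17.3% and 7.69% over all genes tested. Over the 10524 genes at least as abundant as the least abundant member, the median CV was 12.5% in WT and 4.94% in KO. Of those genes, 19.7% had KO libraries wholly above WT, 12.3% were higher at an unadjusted p under 0.05 and 4.67% were called higher by DESeq2, with a median log2 fold change of 0.01. WT replicate 2 was the highest WT library in 23 of 37 members and in 14 of the 16 with an unadjusted p under 0.05. WT replicate 1 was the lowest in 18 of 37. Pou3f4 had 58.3 CPM in WT replicate 1, against 112 and 114 CPM in WT replicates 2 and 3. The inner ear genes listed further on summed to 771 CPM in WT replicate 1, against 1955 and 1726 CPM in the same 2 libraries. The part of such differences in the WT spread was not tested. With WT replicate 1 left out, edgeR called 9 members higher (background 3.6%, with 5.46% lower and 9.06% over both directions): Cd63, Ctsh, Ctsz, Hexa, Glb1, Gusb, Naglu, Galns and Arsb. With WT replicate 2 left out, it called 7 (background 1.41%, with 2.37% lower and 3.78% over both directions): Npc2, Ctsh, Ctsz, Hexa, Glb1, Gusb and Naglu. In each fit 0 members were lower. It called 0 members without WT replicate 3 or without KO replicate 1, 2 or 3, fits in which 0 of all genes passed. At an unadjusted p under 0.05 in either direction, these fits held 17, 11, 13 and 12 members. Over all genes they held 3364 of 20037, 2199 of 20164, 2638 of 20171 and 2087 of 20166.

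Lysosomal genes outside the set were counted in the same way. Over all genes the shares to read them against are 8.71% higher and 10.9% lower at an unadjusted p under 0.05, and 2.98% higher and 4.77% lower by DESeq2. Of 27 other hydrolases 0 passed edgeR, 12 were higher and 0 lower at an unadjusted p under 0.05, DESeq2 called 7 higher, and the median log2 fold change was 0.24. The carboxypeptidase Prcp had 88.4 ± 9.24 CPM in WT against 126.7 ± 5.80 CPM in KO (adjusted p = 0.0832, edgeR). Of 22 other membrane proteins 0 passed edgeR, 5 were higher and 1 lower at an unadjusted p under 0.05, DESeq2 called 2 higher and 0 lower, and the median was 0.18. The sialic acid exporter Slc17a5 had 26.8 ± 1.95 CPM in WT against 34.6 ± 1.82 CPM in KO, and Cd68, a membrane protein of macrophages and osteoclasts, 87.5 ± 22.4 against 136.7 ± 6.33 CPM. The abundant Laptm4a and Laptm5 had 619 ± 58.9 and 135 ± 26.9 CPM in WT against 688 ± 21.2 and 190 ± 8.67 CPM in KO.

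A mixed list of 16 genes around the delivery of hydrolases summed to 1314 to 1354 CPM in WT and 1591 to 1662 CPM in KO. Besides genes of mannose 6-phosphate tagging and sorting, it holds Sumf1, Sumf2, Vps35, Vps26a, Lman1 and Mcfd2, so the sum does not measure delivery alone. Of these 16 genes 1 passed edgeR, 7 were higher and 0 lower at an unadjusted p under 0.05, DESeq2 called 5 higher, and the median was 0.21. The gene that passed, Lman1, is a cargo receptor that carries glycoproteins from the endoplasmic reticulum to the Golgi and is not part of the mannose 6-phosphate pathway. It rose from 190 ± 3.86 to 289 ± 7.06 CPM (log2 fold change 0.60, SE 0.074, adjusted p = 0.0490, edgeR), and like Gusb it was not called without WT replicate 3 or KO replicate 1, 2 or 3. Gnptab, the enzyme that begins the mannose 6-phosphate tag, and the receptor M6pr were chosen with their values known. They had 108 ± 15.1 and 141 ± 8.95 CPM in WT against 158 ± 4.64 and 174 ± 4.39 CPM in KO. Their adjusted p was 0.0986 and 0.139 (edgeR), and DESeq2 called both higher. The other genes of the tag and its receptors, Gnptg, Nagpa and Igf2r, were called by neither edgeR nor DESeq2. Their log2 fold changes were −0.03, 0.23 and 0.22, and Gnptg and Igf2r overlapped between the groups.

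The regulators of lysosome formation, among them Tfeb and the Rag GTPases, had fitted changes on both sides of 0. Of 21 such genes 0 passed edgeR, 1 was higher and 2 lower at an unadjusted p under 0.05, DESeq2 called 1 lower (Rragd), and the median was −0.04, so these counts lay near the shares over all genes. Tfeb had 25.0, 24.9 and 28.8 CPM in WT against 20.3, 20.7 and 20.0 CPM in KO, below WT in every library (log2 fold change −0.37, SE 0.10, adjusted p = 0.148, edgeR). Without WT replicate 1 its adjusted p was 0.0499 (edgeR), in a fit that called 5.46% of all genes lower and 3.6% higher. Of the 21 regulators, that fit called 1 lower, Tfeb, and 1 higher. DESeq2 did not call Tfeb, and 0 of all genes passed edgeR without WT replicate 3 or KO replicate 1, 2 or 3. The GTPase Rragd, a nutrient sensor at the lysosome, had 29.8 ± 7.85 CPM in WT against 17.1 ± 1.57 CPM in KO (log2 fold change −0.80, SE 0.21, adjusted p = 0.137, edgeR). The abundant Rragc and Tsc2 had 111 ± 31.0 and 86.2 ± 1.54 CPM in WT against 95.4 ± 2.65 and 78.0 ± 2.60 CPM in KO. Of 21 core autophagy genes 0 passed edgeR, 3 were higher and 1 lower at an unadjusted p under 0.05, DESeq2 called 0 higher and 1 lower, also near those shares, and the median was −0.07. Map1lc3a, a coat protein of autophagosomes, was the gene that DESeq2 called lower, with 75.8 ± 13.7 CPM in WT against 49.7 ± 4.07 CPM in KO, and Wipi1 had 73.0 ± 6.64 against 89.4 ± 3.61 CPM. The late endosomal GTPase Rab7 had 325 ± 11.4 against 318 ± 5.99 CPM and Gabarap, a relative of Map1lc3a, 246 ± 32.5 against 299 ± 4.43 CPM.

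Markers of other cell types in the tissue are given beside these results. Of 14 osteoclast genes, 13 had KO libraries wholly above WT and an unadjusted p under 0.05, 0 passed edgeR and DESeq2 called 11 higher, where 15%, 8.71%, 0.213% and 2.98% of all genes did. Their summed level was 4810, 7505 and 6548 CPM in WT replicates 1 to 3 and 10722, 10931 and 11406 CPM in KO replicates 1 to 3, well above every WT library. Among the defining osteoclast genes, Ctsk had 2164 ± 564 CPM in WT against 4138 ± 175 CPM in KO and Acp5 1339 ± 446 against 2348 ± 97.1 CPM. Of 15 macrophage genes 0 passed edgeR, 5 were higher and 0 lower at an unadjusted p under 0.05, and DESeq2 called 2 higher. In 8 of the 15 the KO libraries lay wholly above WT (15% of all genes) and in 1 below (12.7%). Log2 fold changes were above 0 in 12 of the 15, with a median of 0.35. The 15 genes summed to 654 to 901 CPM in WT and 1091 to 1206 CPM in KO. Csf1r, which osteoclasts share, had 225 ± 35.6 CPM in WT against 376 ± 8.82 CPM in KO. Osteoblast genes summed to 40227 to 49499 CPM in WT and 80861 to 90524 CPM in KO, and 3 of 10 passed edgeR, all higher (0.213% of all genes). Melanocyte genes summed to 94.9, 145 and 132 CPM in WT and 145, 145 and 164 CPM in KO. These sums overlapped narrowly, with 145.3 CPM in WT replicate 2 against 145.1 and 145.2 CPM in KO replicates 1 and 2. Fold changes lay above 0 in 8 of the 9 melanocyte genes tested, and the median on the log2 scale was 0.35. In 4 of the 9 the KO libraries lay wholly above WT (15% of all genes) and in 0 below. Of the 9, 0 passed edgeR, 1 was higher and 0 lower at an unadjusted p under 0.05, and DESeq2 called 1 higher. Neutrophil genes summed to 217 to 1292 CPM in WT and 891 to 979 CPM in KO, with all 11 genes overlapping between the groups. Mean sums were lower in KO for Schwann cell genes (4423 to 8136 CPM in WT, 3104 to 3547 CPM in KO), spiral ganglion neuron genes (1223 to 2627 against 930 to 1281 CPM), inner ear genes (771 to 1955 against 759 to 859 CPM), erythroid genes (2028 to 7876 against 2092 to 3358 CPM) and muscle genes (233 to 11270 against 70.8 to 925 CPM). The edgeR test called 3 of 8 Schwann cell genes, 1 of 10 neuron genes and 1 of 13 inner ear genes lower (0.183% of all genes). It called 0 erythroid or muscle genes. Of the 7 erythroid and 13 muscle genes, 2 and 5 were lower at an unadjusted p under 0.05 (10.9% of all genes). DESeq2 called 1 of each list lower (4.77% of all genes). Of the 13 inner ear genes, 7 had a fold change above 0, the median log2 fold change was 0.02, and 10 overlapped between the groups. At least 1 library held counts for every marker. The part of these cell types in the lysosomal differences was not tested.

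**Figure D5:**
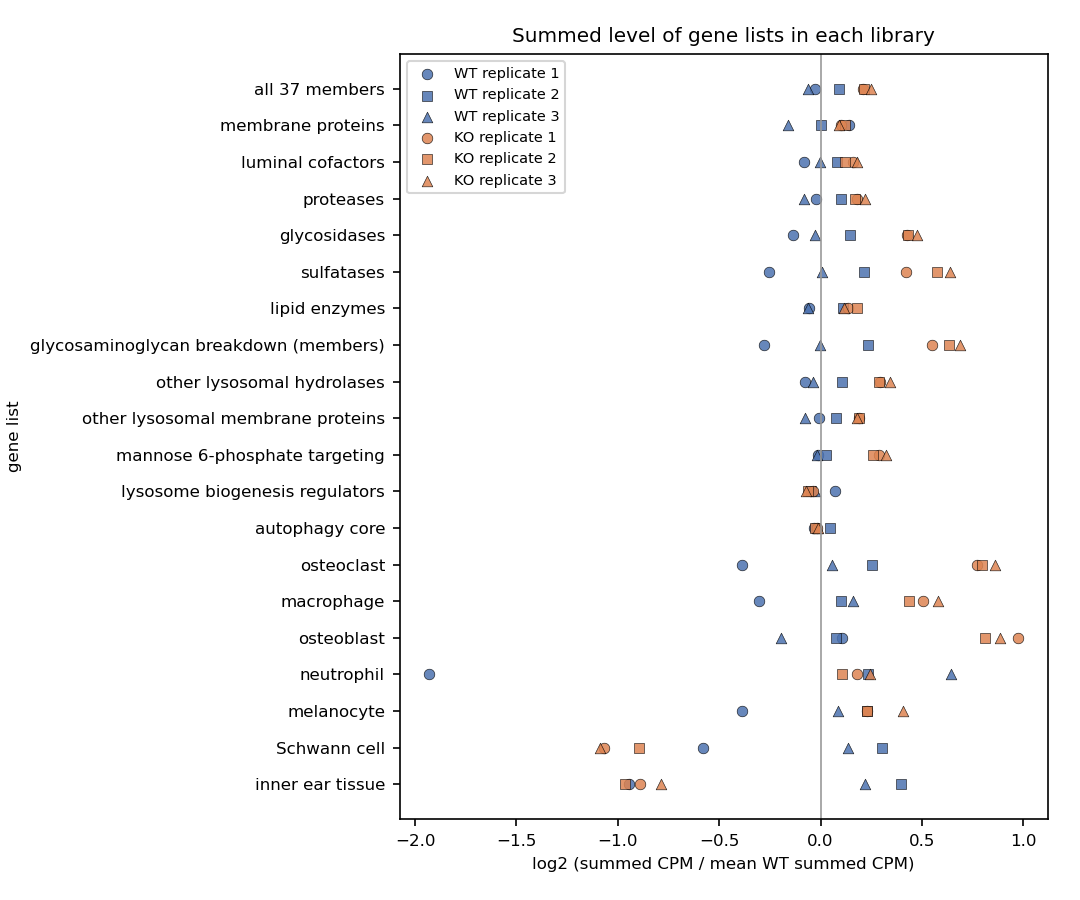
Summed CPM of each gene list in each library, as log2 of the sum over the mean WT sum (horizontal axis), for the 37 lysosomal genes, their role groups, other lysosomal lists and cell type markers (vertical axis). Blue marks are WT and orange marks KO libraries; osteoclast and osteoblast sums lie farther to the right in KO than the lysosomal sums, and those of regulators and autophagy genes stay near 0.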

How the data were processed

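Total RNA of mouse inner ear was sequenced in 3 WT and 3 Pou3f4 KO libraries; per the labels' protocols it was extracted with Trizol and prepared with a stranded TruSeq mRNA kit. Trimmomatic, HISAT2, Cufflinks, HTSeq and mm10 are named, per the submitters' processing notes. Tool versions, the annotation release and strand handling were not given in the sources. The authors deposited counts per gene as whole numbers, without normalisation, with coordinates that matched GENCODE M21 for all 37 members.

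The members and gene lists were chosen with earlier results of these data known. Counts were analysed as deposited with edgeR 4.0.16 in R 4.3.3: filterByExpr (minimum count 10, 19687 genes kept), TMM scaling, and the quasi-likelihood F test (glmQLFit, glmQLFTest) with genotype alone, Benjamini-Hochberg adjusted over all genes tested, threshold 0.05. The SE is the log2 fold change divided by the root of F. The fit was tested on simulated data. A count of 0 allows up to 3 reads, or 0.130 to 0.167 CPM, for counting error only. Exon lengths are unions of GENCODE M21 exons; reads in exons shared with another gene are uncertain. DESeq2 1.42.0, limma-voom (limma 3.58.1), RLE and upper-quartile scaling, other filters, a replicate block, an Xist term, leaving out mitochondrial, haemoglobin and muscle genes, and leaving out each library were alternatives.

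Full statistics are given for members past the threshold and those with the 8 smallest unadjusted p, and values for the 3 most abundant of each role. In other lysosomal lists, members past the threshold, or the 2 with the smallest p and the 2 most abundant, are named. Some genes that this rule names are not reported here. Further members and genes with statistics, Arsb among them, were chosen after their values were seen.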

Additional observations from a re-analysis of the deposited data

How the results depend on the processing

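Each alternative was fixed with earlier results of these data known. The member median log2 fold change stayed within 0.20 to 0.29, so its sign held in all 15 alternatives. The number of members called was 1 under RLE (69 of all genes), upper-quartile scaling (76), the filter of 1 CPM in 3 libraries (86), limma-voom (80) and without mitochondrial, haemoglobin and muscle genes (74), and 2 with no filter on low counts, Ctsh beside Gusb (106 of all genes). It was 11 with DESeq2 (1505 of all genes, 579 higher and 926 lower). Leaving out each library in turn gave 0 to 9 members and 0 to 1814 of all genes.

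The replicate block gave 0 members and 1 of all genes, and Gusb then had an adjusted p of 0.220 (edgeR). At an unadjusted p under 0.05 it gave 15 members and 2992 of 19687 genes. The deviations of same-numbered libraries from their group means had correlations of −0.131, −0.295 and −0.191, no library correlated best with its own number, and the numbers were not taken to pair the samples. With Xist presence added to the model, 0 members and 0 of all genes passed. At an unadjusted p under 0.05 this model gave 15 members and 3185 of 19687 genes.

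Leaving out mitochondrial, haemoglobin and muscle genes shrinks the library totals and put the mean summed member level of WT at 8102 CPM and that of KO at 9448 CPM. The log2 fold changes of 4 members changed sign: Smpd1 had 0.004 under upper-quartile scaling, 0.012 with no filter, and −0.0523 to 0.037 with single libraries left out (above 0 without WT replicate 3 or KO replicates 1 or 3). With single libraries left out, Mcoln1 ran from −0.0039 to 0.1434 and Psap from −0.0118 to 0.0835 (both below 0 without WT replicate 1), and Fuca1 from −0.0154 to 0.1404 (below 0 without WT replicate 3). The least abundant member, Gla, had a mean of 14.3 CPM, where a count of 0 allows at most 0.167 CPM.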
